A study of Mus musculus with 18 samples.

Results

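A set of 10 genes of the NF-kB pathway was followed through whole-genome bisulfite sequencing (WGBS) data on CD11b+ and CD4+ spleen cells of wild-type (WT) and Dnmt3a R878H/+ mice. They encode REL subunits with an activation domain (Rela, Rel and Relb), precursor subunits (Nfkb1 and Nfkb2), IkB proteins (Nfkbia, Nfkbiz and Bcl3) and regulators upstream of the kinase complex (Tnfaip3 and Traf6). Every region that the authors' tables list within 5 kb of the body of these 10 genes was taken, among 21951 protein-coding genes of the annotation. This gave 153 of 411770 listed regions in CD11b+ cells and 212 of 553467 in CD4+ cells. Methylation was lower in R878H/+ than in WT cells in 137 of the 153 regions (89.5%) and in all but 5 of the 212 (97.6%). Among all listed regions the shares were 93.4% in CD11b+ and 95.5% in CD4+ cells, so a lower level was the rule at large. The largest losses among the 10 genes were found in Bcl3, Nfkbiz, Nfkbia, Relb and Nfkb1.

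The groups were WT CD11b+, R878H/+ CD11b+, WT CD4+ and R878H/+ CD4+ cells, with 4 mice in each and 6 entries for the 4 replicates of R878H/+ CD11b+ cells. The mutant mice carried a conditional R878H allele of Dnmt3a, which encodes a de novo DNA methyltransferase, beside a normal allele. Vav1-iCre, which is active constitutively and throughout hematopoietic cells, had switched it on, so the myeloid and T cells both carried the mutation from their precursors onward. The WT mice had the genotype Dnmt3a+/+ in the labels, and the study's methods use both Cre-positive Dnmt3a+/+ mice and Cre-negative mice with the floxed allele as controls. The mice had a C57BL/6 background, were young adults of both sexes, and their cells were isolated from the spleen on magnetic columns. The tables give the authors' mean of each genotype in percent and neither a value for any mouse nor a depth. No error between mice or interval could therefore be given, the authors' own test results per region were not used, and the differences below describe these group means. The tables do not name the genotypes, and the group listed ahead of the other was read as WT, the genotype that the study shows as the more methylated. Every direction rests on that reading. A region holds at least 10 CpG cytosines, with both strands counted. Positions are those of mm10.

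NF-kB dimers are held in the cytoplasm by IkB proteins such as the product of Nfkbia. Signals from cytokine, Toll-like and antigen receptors lead to phosphorylation and degradation of the IkB protein, and the dimer enters the nucleus. Several targets of NF-kB encode its own inhibitors, which gives the pathway its negative feedback. In myeloid cells the pathway drives inflammatory cytokines, and in T cells it is needed for activation and survival.

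The cell labels were checked by the WT means at regions that overlap between the tables, since cell type genes tend to be less methylated where they are used. Of 8 T cell genes, 7 had a lower WT mean in CD4+ than in CD11b+ cells (median difference -8.60 percentage points), with Cd2 at 35.4% and 77.2%. Of 8 myeloid genes, 7 had a higher WT mean in CD4+ cells (median 8.30 points), with Elane at 84.2% in CD4+ and 64.1% in CD11b+ cells, while Itgam, which encodes CD11b, was at 83.9% and 84.6%. Of 6 B cell genes, 5 also had the lower WT mean in CD11b+ cells, with Cd79a at 41.6% in CD11b+ and 66.4% in CD4+ cells. Whether B cells were among the CD11b+ cells, and their part in the results, was not tested.

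The sequences of 6 regions with large losses, and of those before the start of Nfkb1 and at the largest gain, are shown from the mm10 reference, plus strand, with each CpG in capitals. The last-named pair was chosen after its values were seen. A Relb region with a loss of 40.4 points is not shown because it touches an untranslated exon. Regions longer than 300 bases are represented by their middle 300. The following lines give, in order, exon 5 of Bcl3 (chr7:19811139-19811392), intron 2 of Nfkbiz (chr16:55822832-55823131), the downstream side of Nfkbiz (chr16:55807715-55807908), the downstream (chr12:55487089-55487388) and upstream (chr12:55493440-55493739) sides of Nfkbia, intron 1 of Nfkb1 (chr3:135681090-135681373), the upstream side of Nfkb1 (chr3:135692098-135692397) and exon 14 of Nfkb2 (chr19:46309199-46309283).
Bcl3 exon 5: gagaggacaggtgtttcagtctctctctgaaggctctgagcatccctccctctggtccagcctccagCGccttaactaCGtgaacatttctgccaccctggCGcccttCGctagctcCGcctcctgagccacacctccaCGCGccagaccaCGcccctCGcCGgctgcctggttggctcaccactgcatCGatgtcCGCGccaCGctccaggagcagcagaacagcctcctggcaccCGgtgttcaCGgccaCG
Nfkbiz intron 2: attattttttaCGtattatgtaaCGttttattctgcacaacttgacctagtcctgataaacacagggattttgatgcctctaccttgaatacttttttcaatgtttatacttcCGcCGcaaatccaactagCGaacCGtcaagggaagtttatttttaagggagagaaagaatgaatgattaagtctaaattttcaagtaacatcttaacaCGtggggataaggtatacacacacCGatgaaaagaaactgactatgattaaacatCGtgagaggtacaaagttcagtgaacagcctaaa
Nfkbiz downstream: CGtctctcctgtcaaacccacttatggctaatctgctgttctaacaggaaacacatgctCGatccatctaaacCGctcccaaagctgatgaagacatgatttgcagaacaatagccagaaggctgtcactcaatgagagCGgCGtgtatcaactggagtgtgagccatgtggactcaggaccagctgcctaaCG
Nfkbia downstream: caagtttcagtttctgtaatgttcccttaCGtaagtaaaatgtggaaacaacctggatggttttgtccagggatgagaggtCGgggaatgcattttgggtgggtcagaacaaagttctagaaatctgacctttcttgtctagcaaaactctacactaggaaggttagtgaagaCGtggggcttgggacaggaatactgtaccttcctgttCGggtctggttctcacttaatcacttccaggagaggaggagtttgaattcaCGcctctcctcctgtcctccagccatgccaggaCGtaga
Nfkbia upstream: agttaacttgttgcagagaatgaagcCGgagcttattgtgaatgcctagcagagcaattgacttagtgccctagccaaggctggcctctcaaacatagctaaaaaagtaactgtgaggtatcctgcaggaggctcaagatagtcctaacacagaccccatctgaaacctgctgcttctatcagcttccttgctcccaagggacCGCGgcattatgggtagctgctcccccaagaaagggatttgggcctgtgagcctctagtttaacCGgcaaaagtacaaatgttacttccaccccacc
Nfkb1 intron 1: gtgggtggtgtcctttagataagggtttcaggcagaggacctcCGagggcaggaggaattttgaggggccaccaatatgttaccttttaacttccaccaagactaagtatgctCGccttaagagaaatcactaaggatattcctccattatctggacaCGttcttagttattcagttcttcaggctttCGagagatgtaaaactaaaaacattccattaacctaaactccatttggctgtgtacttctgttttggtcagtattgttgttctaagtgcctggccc
Nfkb1 upstream: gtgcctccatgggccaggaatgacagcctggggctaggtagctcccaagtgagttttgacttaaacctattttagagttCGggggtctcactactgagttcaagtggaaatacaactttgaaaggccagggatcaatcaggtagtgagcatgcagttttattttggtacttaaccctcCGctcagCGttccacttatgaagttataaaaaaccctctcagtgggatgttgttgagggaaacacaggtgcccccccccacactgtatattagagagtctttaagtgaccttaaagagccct
Nfkb2 exon 14: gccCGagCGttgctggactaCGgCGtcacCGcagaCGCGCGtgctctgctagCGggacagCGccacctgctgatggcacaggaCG
CpGs were spread thinly in most of these sequences. The 300 bases upstream of Nfkb1 held 3 CpGs and those upstream of Nfkbia 4, whereas the 254 bases of Bcl3 held 17 and the 85 bases of Nfkb2 held 11. Annotated repeats covered 12.0% of the Nfkbia upstream sequence, 13.7% of the Nfkbiz intron sequence and none of the others.

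Over all 10 genes, the loss (WT minus R878H/+) had a median of 7.55 percentage points in CD11b+ cells (interquartile range over regions 4.14 to 14.8), beside 6.55 points over all listed regions. In CD4+ cells it had a median of 9.64 points (5.31 to 17.6), beside 6.85 points. The regions had a median methylation of 83.2% in WT and 72.4% in R878H/+ CD11b+ cells. The respective medians in CD4+ cells were 88.9% and 75.8%. The regions of the 10 genes thus lost somewhat more than the listed regions at large, and the gap was wider in CD4+ cells. All listed regions had a higher WT median, 88.9% in CD11b+ and 89.9% in CD4+ cells. Their median loss in CD11b+ cells was 13.4 points at a WT mean of 50% to 80% and 5.65 points above 80%. In CD4+ cells it was 13.0 and 6.11 points. The part of the starting level in the gap was not tested.

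A region was called hypomethylated when it held more than 10 CpG cytosines and lost more than 20 percentage points. By this rule, 8 of 55 regions (14.5%) were called in CD11b+ cells, where 7.75% of all listed regions of that size and 8.86% of those near protein-coding genes were called. In CD4+ cells 24 of 99 (24.2%) were called, where the corresponding shares were 6.89% and 8.01%. Of the 10 genes, 5 of the 9 with a region of that size had at least 1 called region in CD11b+ cells (Nfkb1, Nfkbia, Nfkbiz, Bcl3 and Traf6), beside 32.8% of protein-coding genes. In CD4+ cells 7 of the 10 had at least 1 (Rela, Relb, Nfkb1, Nfkbia, Nfkbiz, Bcl3 and Tnfaip3), beside 36.4%. Genes with more listed regions have more occasions to be called, and Nfkb1 alone held 68 regions in CD11b+ and 90 in CD4+ cells, where the median gene held 8 and 10. Without Nfkb1, 6 of 30 regions were called in CD11b+ cells and 11 of 56 (19.6%) in CD4+ cells.

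**Figure D1:**
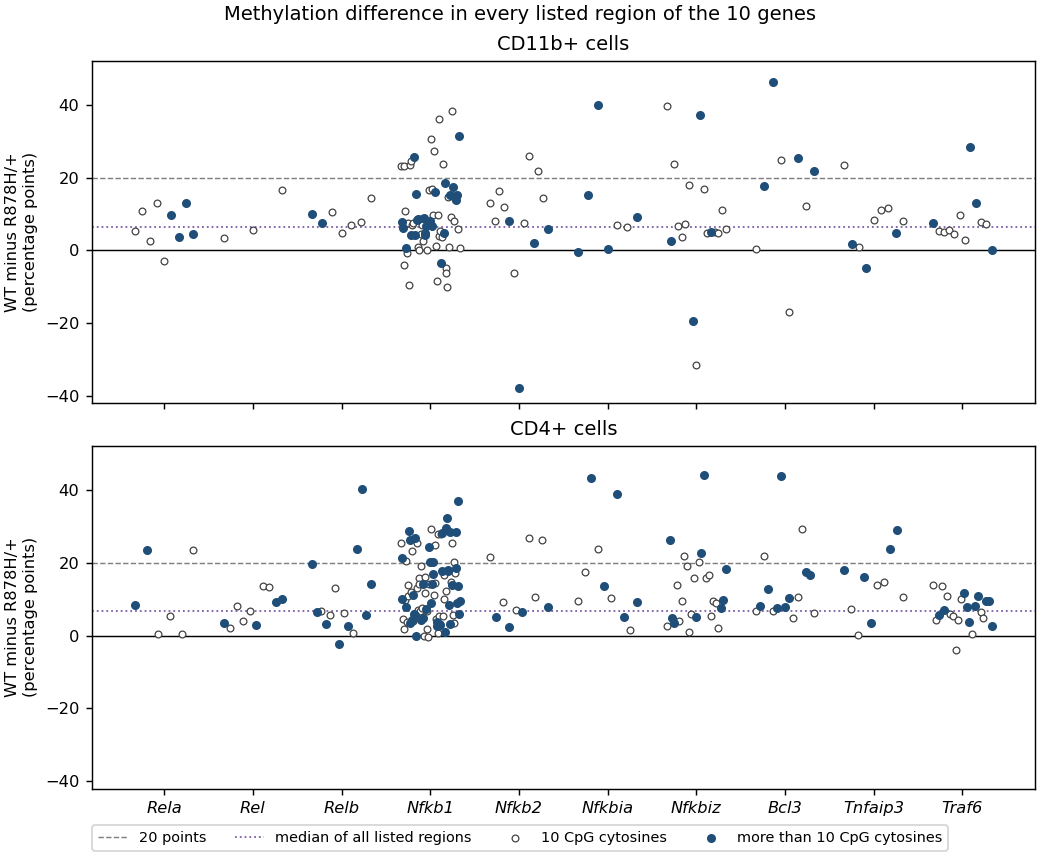
Each point is a listed region, placed by gene (regions of a gene from left to right by position) and by the difference of the group means, WT minus R878H/+, in percentage points; filled points hold more than 10 CpG cytosines and open points 10, the dashed line marks 20 points and the dotted line the median of all listed regions. Losses above 35 points lie in Bcl3, Nfkbia, Nfkbiz and Nfkb1 in both cell types and in Relb in CD4+ cells, and gains below zero of 16.9 points or more lie in Nfkb2, Nfkbiz and Bcl3 in CD11b+ cells.

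The share of called regions also varied with the starting level. Among regions with a WT mean between 50% and 80%, 12 of 21 (57.1%) were called in CD4+ cells, beside 25.9% of all listed regions at that level. Among regions with a WT mean above 80%, 9 of 66 (13.6%) were called, beside 2.23%. In CD11b+ cells the shares were 33.3% beside 26.8% at 50% to 80%, and 6.06% beside 1.62% above 80%. The share among the 10 genes was thus the higher of each pair at both levels. Its excess in CD11b+ cells rests on 4 of 12 regions at 50% to 80% and on 2 of 33 above 80%.

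By role, the IkB proteins had the highest share of called regions in CD11b+ cells, with 5 of 13 (38.5%), while the precursor genes had 2 of 29, the upstream regulators 1 of 7 and the REL subunits 0 of 6. In CD4+ cells the precursor genes had 13 of 47 (27.7%), the IkB proteins 6 of 22 (27.3%), the REL subunits 3 of 15 and the upstream regulators 2 of 15. Single genes carried much of this. Bcl3 held 3 of the 5 IkB calls in CD11b+ cells, among only 4 regions, and Nfkbia and Nfkbiz held 1 each. Nfkb1 held all 13 precursor calls in CD4+ cells, among 43 regions, and Nfkb2 had 0 of 4. The shares by role therefore describe single genes in large part. The shares of all listed regions were 7.75% and 6.89%, and at 6 regions a count of 0 is near such a share.

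**Figure D2:**
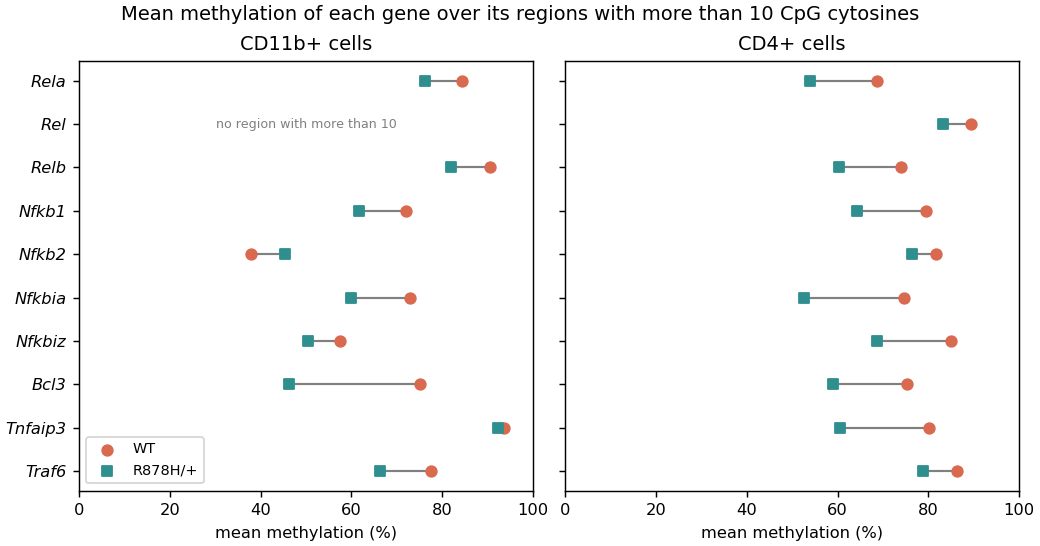
Mean methylation in percent of each gene in WT (circles) and R878H/+ cells (squares), over its listed regions with more than 10 CpG cytosines and weighted by their number. The squares lie to the left of the circles for every gene shown except Nfkb2 in CD11b+ cells; Rel has no such region in CD11b+ cells.

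Among the REL subunits, Rela encodes p65, the main transactivating subunit. It had 9 regions in CD11b+ and 6 in CD4+ cells, and its mean over the larger regions went from 84.3% to 76.3% and from 68.6% to 53.9%. The CD4+ mean rests on 2 regions, chr19:5632210-5632952 and chr19:5636021-5636481, which both lie upstream of Rela. About 1 kb before its start, chr19:5636021-5636481 was at 64.0% in WT and 40.7% in R878H/+ CD4+ cells, a loss of 23.4 points. The overlapping region of CD11b+ cells started from a lower level and fell from 46.6% to 35.8%. Beyond its 3′ end, chr19:5649283-5649908 fell from 45.0% to 21.6% in CD4+ cells, and the largest loss in CD11b+ cells, 13.1 points from 61.4% to 48.3%, overlapped it at chr19:5649646-5650103. Closest to the start, a region 540 bp upstream in CD11b+ cells was almost free of methylation in both genotypes, at 3.02% and 0.375%.

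Rel encodes c-Rel, which is prominent in lymphocytes. None of its 3 regions in CD11b+ and 10 regions in CD4+ cells lost more than 20 points. The largest loss was 16.5 points in CD11b+ cells, from 49.4% to 32.9% at chr11:23771896-23772182, which lies 926 bp before its start. In CD4+ cells it was 13.7 points, from 83.2% to 69.6% in intron 3 at chr11:23754773-23755076, where CD11b+ cells fell from 85.2% to 79.5%.

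Relb encodes the partner of p52 in the non-canonical branch. Its losses in CD4+ cells were concentrated at exon 4, where chr7:19619586-19619831 fell from 59.4% to 19% (40.4 points) and the adjoining chr7:19619261-19619571 from 31.8% to 7.94%. Only 0.171% of the listed regions of CD4+ cells lost more than the former. The table of CD11b+ cells lists no region overlapping either, and its largest loss in Relb was 14.5 points, from 62.7% to 48.1% at exon 2, chr7:19627513-19628235. The exon 4 pair lay between regions with small losses, such as chr7:19617768-19617809 at 97.8% and 97.2%.

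Nfkb1 encodes p105, the precursor of p50, and is the longest of the 10 genes. It had 11 regions with a loss above 20 points in CD11b+ cells, of which 2 held more than 10 CpG cytosines, and 23 in CD4+ cells, of which 13 did. Its mean over the larger regions went from 72.1% to 61.6% in CD11b+ cells and from 79.4% to 64.2% in CD4+ cells.

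The region before its start changed in both cell types. In CD11b+ cells chr3:135692060-135692526 fell from 58.9% to 27.5% (31.5 points), and in CD4+ cells chr3:135692059-135692437 fell from 76.4% to 39.4% (37.0 points), its largest loss there. The near edge of both regions lies 512 to 513 bp from the start, and the printed sequence with 3 CpGs lies within both. The WT level was 17.5 points higher in CD4+ cells, and the losses differed by 5.56 points.

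Intron 1 of Nfkb1 held 12 regions in CD11b+ cells (median loss 14.4 points) and 18 in CD4+ cells (17.4 points). In CD11b+ cells its largest loss was 38.3 points, from 83.5% to 45.2% at chr3:135681090-135681373, which is also the largest of the gene but holds only 10 CpG cytosines. In CD4+ cells, the overlapping chr3:135681248-135681659 fell from 59.4% to 30.9%. Intron 1 of CD4+ cells thus lost methylation at several further places.
At chr3:135674855-135675255 the CD4+ level fell from 87.1% to 54.8%, at chr3:135670391-135671054 from 75.4% to 45.8%, and at chr3:135688789-135689081 from 81.2% to 52.8%. Further losses in CD4+ cells were those at chr3:135683572-135683750, from 70.4% to 45.0%, and at chr3:135686217-135686674, from 55.5% to 35.4%. CD11b+ cells have no listed region over chr3:135674855-135675255 or chr3:135686217-135686674. None of the CD11b+ regions that overlap the others of these 5 lost more than 20 points.

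Intron 6 of Nfkb1 held another series of losses. In CD11b+ cells it fell from 82.0% to 46.0% at chr3:135653079-135653639, from 77.3% to 46.7% at chr3:135631092-135631233 and from 53.5% to 26.3% at chr3:135636187-135636503. In CD4+ cells the levels at places overlapping the former 2 fell from 89.8% to 61.9% at chr3:135653458-135653877 and from 81.8% to 52.4% at chr3:135631091-135631233. At the last place CD4+ cells were already low in WT and fell from 28.4% to 17.3%. The 4 other losses above 20 points in intron 6 were seen in CD4+ cells, at chr3:135636790-135637182 (83.1% to 58.1%), chr3:135628540-135629193 (43.0% to 18.8%), chr3:135634991-135635918 (73.1% to 52.8%) and chr3:135630375-135630651 (83.8% to 63.5%). CD11b+ cells have no listed region over the last of these. Their regions overlapping the others lost 16.0, 16.6 and 9.75 points in the same order.

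Between and beyond these introns, losses above 20 points were shared at 5 places. In intron 5, CD11b+ cells fell from 60.6% to 36.8% at chr3:135658623-135659011 and CD4+ cells from 76.5% to 48.5% at chr3:135658906-135659022. In intron 16, CD11b+ cells fell from 38.1% to 12.4% at chr3:135602222-135602998 and CD4+ cells from 51.7% to 28.4% at chr3:135602223-135602736. In intron 17, CD11b+ cells fell from 39.7% to 15.1% at chr3:135596755-135597434, and CD4+ cells, which started 41.3 points higher in WT, from 81.0% to 54.6% at chr3:135596497-135597261. The losses at the last place were 24.6 and 26.3 points, so the genotype difference was alike where the WT levels were far apart.
Exon 18 fell from 65.2% to 41.6% in CD11b+ cells (chr3:135594934-135595246) and from 69.2% to 40.5% in CD4+ cells (chr3:135594702-135595246). Downstream of the gene, CD11b+ cells fell from 55.5% to 32.3% at chr3:135578868-135579739 and CD4+ cells from 82.4% to 57.0% at chr3:135579535-135579855.

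The remaining losses above 20 points in Nfkb1 had no counterpart of that size listed in the other cell type. In CD11b+ cells, intron 24 fell from 65.8% to 42.5% at chr3:135586551-135586927, where CD4+ cells fell from 88.5% to 78.9%. In CD4+ cells they lay in intron 4 (chr3:135661565-135662058, 83.9% to 55.7%), intron 15 (chr3:135604425-135604782, 81.3% to 54.5%) and intron 13 (chr3:135607341-135607519, 37.1% to 11.7%). The others of CD4+ cells were in exon 22 (chr3:135590700-135591055, 70.7% to 50.3%) and downstream (chr3:135582547-135583001, 87.7% to 66.3%). CD11b+ cells have no listed region over the intron 4 and exon 22 places. Their overlapping regions lost 15.5 points at intron 15, 8.67 points at intron 13 and 6.28 points downstream. Losses were therefore spread over the whole gene rather than gathered at its start. The map of the listed regions by distance from the start of Nfkb1 shows this spread.

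**Figure D3:**
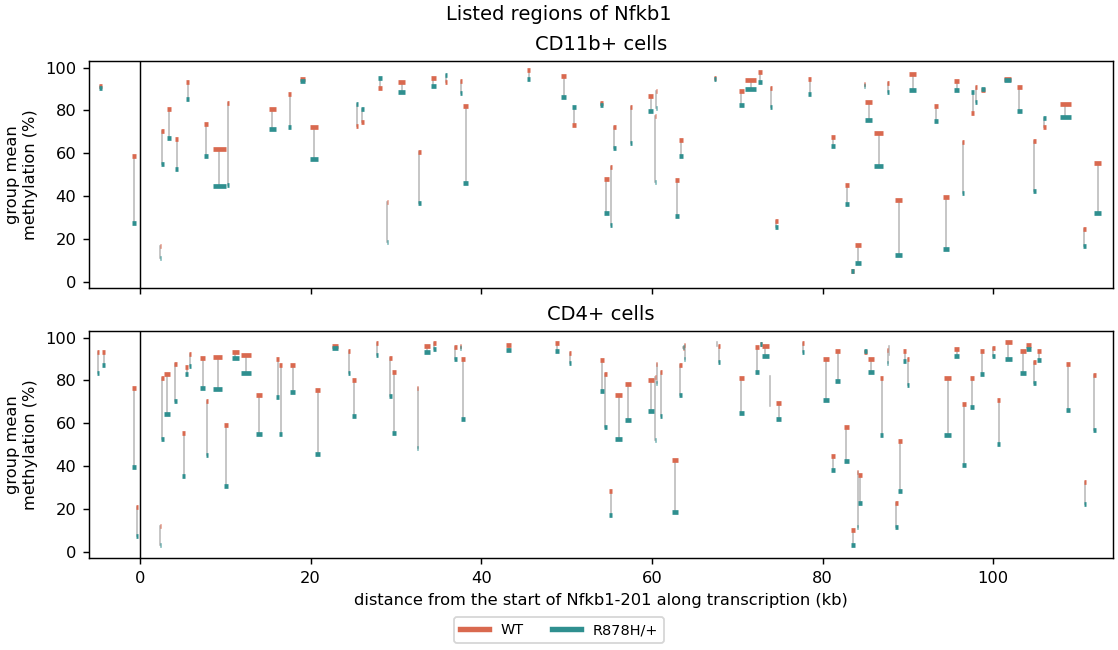
Listed regions of Nfkb1 in CD11b+ (top) and CD4+ cells (bottom), by distance from the start of its main transcript in kb, with the group mean in percent for WT (orange) and R878H/+ (teal); bars span the region, a thin line joins the means, and the vertical line marks the start. The bars drop furthest just before the start, in intron 1 and in intron 6, and several regions far inside the gene have low WT levels.

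Nfkb2 encodes p100, the precursor of p52, and it differed from Nfkb1 in that no region was called in either cell type. Over its 4 larger regions per cell type, the mean rose from 37.9% to 45.3% in CD11b+ cells and fell from 81.8% to 76.3% in CD4+ cells. The rise rests on a stretch of 85 bp in exon 14, chr19:46309199-46309283, which went from 0.574% in WT to 38.5% in R878H/+ CD11b+ cells. With all listed regions counted, the CD11b+ mean fell by 4.79 points instead. The region next to it, chr19:46308610-46309159, was also low, at 9.78% and 16.0%. The table of CD4+ cells lists no region over the exon 14 stretch.

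Losses above 20 points near Nfkb2 lay in its flanks. Upstream, chr19:46300387-46300520 fell from 56.8% to 35.2% in CD4+ cells, where the CD11b+ level fell from 63.1% to 50.1%. Downstream, chr19:46314175-46314353 fell from 68.8% to 42.9% in CD11b+ cells and chr19:46314197-46314426 from 73.3% to 46.6% in CD4+ cells. The others were chr19:46315920-46316534 in CD11b+ cells (67.4% to 45.7%) and chr19:46316923-46316980 in CD4+ cells (53.7% to 27.3%). All 4 downstream regions lie inside the neighbouring gene Psd, so they may equally be described as Psd regions.

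Nfkbia encodes IkBα, the inhibitor that NF-kB itself induces. Its mean over the larger regions fell from 74.7% to 52.6% in CD4+ cells (22.1 points) and from 73.0% to 59.9% in CD11b+ cells (13.1 points). These losses lay largely in the flanks, and within the gene body they were 13.5 and 0.368 points. The body values are those of chr12:55489502-55490319 alone in CD4+ cells and of chr12:55490812-55491527 alone in CD11b+ cells. About 2 kb beyond its 3′ end, chr12:55487119-55487532 fell from 68.5% to 28.6% in CD11b+ cells (39.9 points), and chr12:55486981-55487497 from 77.6% to 34.3% in CD4+ cells (43.3 points). Only 0.265% and 0.0930% of the listed regions of the respective cell types lost more. The adjoining chr12:55487517-55487932 of CD4+ cells fell from 82.3% to 58.4%. The downstream loss was therefore common to both cell types.
Before the start the cell types differed in what was listed. In CD4+ cells, chr12:55493414-55493765, whose near edge is 767 bp from the start, fell from 87.2% to 48.3% (38.8 points), while the table of CD11b+ cells lists no region there. Inside the gene, the CD11b+ region over exons 3 and 4 stayed at 53.3% and 52.9%, while CD4+ cells went from 24.0% to 13.6% at exon 3.

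Nfkbiz encodes IkBζ, a nuclear IkB protein that acts with p50 at a set of secondary response genes. In intron 2, chr16:55822752-55823212 fell from 56.5% to 19.2% in CD11b+ cells (37.3 points) and chr16:55822751-55823212 from 72.5% to 28.5% in CD4+ cells (44.0 points). The latter was the largest loss among all 212 regions of CD4+ cells, and 0.0779% of the listed regions lost more. Both intron 2 regions lie 613 to 614 bp from an internal transcription start of Nfkbiz and count as promoter regions below. Downstream, chr16:55807715-55807908 fell from 68.8% to 29.2% in CD11b+ cells, and chr16:55807715-55807981 from 85.4% to 59.2% in CD4+ cells. In intron 13, chr16:55813103-55813450 fell from 45.8% to 22.0% in CD11b+ cells and chr16:55813103-55813535 from 64.9% to 43.1% in CD4+ cells. All 3 places thus showed losses above 20 points in both cell types.
Losses above 20 points in CD4+ cells were also found at exon 5 (chr16:55818927-55819456, 48.8% to 26.1%) and exon 7 (chr16:55818289-55818527, 91.4% to 71.2%). At exon 3, less than 1 kb from the intron 2 region, the difference had the opposite sign in CD11b+ cells. There, chr16:55822018-55822072 rose from 0.325% to 31.7% and chr16:55821907-55822000 from 0.597% to 20%, and the table of CD4+ cells lists neither. These gains lie 66 and 138 bp from the internal start and also count as promoter regions. The mean of Nfkbiz over its larger regions accordingly fell by only 7.15 points in CD11b+ cells and by 16.4 points in CD4+ cells.

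Bcl3 encodes a nuclear IkB protein that binds p50 and p52 homodimers. Its mean over the larger regions fell from 75.2% to 46.3% in CD11b+ cells (28.8 points), the largest mean loss of the 10 genes in either cell type at these settings, and from 75.2% to 58.9% in CD4+ cells (16.3 points). With all listed regions counted, the CD11b+ loss was 18.7 points. Exon 5 carried the largest loss in both. In CD11b+ cells, chr7:19811139-19811392 fell from 77.8% to 31.6% (46.2 points), a loss exceeded by 0.0704% of the listed regions. In CD4+ cells, chr7:19811241-19811444 fell from 75% to 31.3% (43.8 points). The WT levels, the R878H/+ levels and the losses were close to each other in the 2 cell types.
Elsewhere in Bcl3, intron 2 differed most between the cell types. In CD11b+ cells it fell from 84.4% to 59.0% at chr7:19818332-19819092 and from 85.6% to 60.9% at chr7:19814067-19814545, where the overlapping CD4+ regions lost 10.6 and 10.4 points. Upstream, chr7:19824728-19824877 fell from 46.4% to 24.5% in CD11b+ cells, beside 37.1% to 20.4% in CD4+ cells. In CD4+ cells, intron 1 fell from 79.8% to 50.5% at chr7:19821683-19822267, where CD11b+ cells have no listed region. Exon 8 fell from 88.4% to 66.5% at chr7:19809156-19809479, beside 88.9% to 71% in the overlapping CD11b+ region. Intron 2 also held a gain in CD11b+ cells, from 5.80% to 22.8% at chr7:19817364-19817897.

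**Figure D4:**
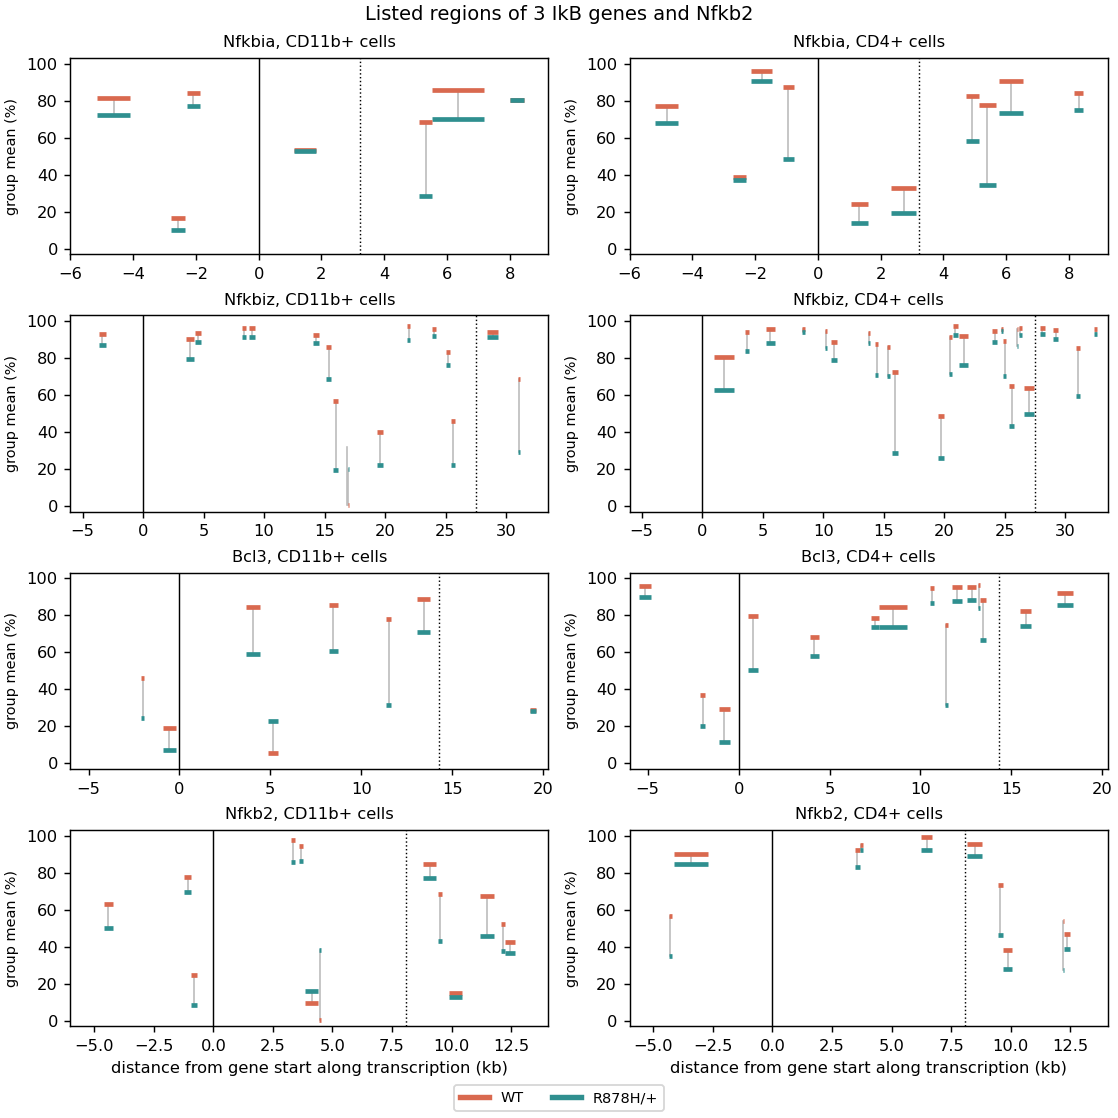
Listed regions of Nfkbia, Nfkbiz, Bcl3 and Nfkb2 in CD11b+ (left) and CD4+ cells (right), by distance from the gene start along transcription in kb, with group means in percent for WT (orange) and R878H/+ (teal); the solid line marks the gene's start and the dotted line its end. Deep drops recur at the same distance in both cell types downstream of Nfkbia, in the middle of Nfkbiz and near the end of Bcl3, and bars with teal above orange mark the gains in CD11b+ cells.

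Tnfaip3 encodes A20, a ubiquitin-editing enzyme that shuts the pathway down. Its mean over the larger regions fell by 19.5 points in CD4+ cells, from 80.1% to 60.6%, and by 1.26 points in CD11b+ cells, from 93.6% to 92.4%. In CD4+ cells, chr10:19011166-19011730 at exon 2 fell from 72.4% to 43.5% (28.9 points) and chr10:19010318-19010752 in intron 2 from 77.1% to 53.2%. At the other edge of exon 2, CD11b+ cells fell from 50.1% to 38.5% at chr10:19011729-19012102. The largest loss in CD11b+ cells was 23.5 points at exon 9 (chr10:19002053-19002230, 62.0% to 38.5%), where CD4+ cells fell from 80.5% to 64.3%. The regions of the 2 cell types were only partly the same, and the CD11b+ mean rests on 3 regions.

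Traf6 encodes a ubiquitin ligase that relays Toll-like and interleukin 1 receptor signals. It was the gene whose called region was found in CD11b+ cells and not in CD4+ cells. At exon 8, chr2:101698157-101698312 fell from 84.1% to 55.8% in CD11b+ cells (28.3 points), while the overlapping region of CD4+ cells fell from 94.1% to 86.0% (8.08 points). None of the 22 CD4+ regions of Traf6 lost more than 20 points, and the largest loss was 13.8 points, from 82.2% to 68.4% upstream at chr2:101673420-101673725. The mean of the larger regions fell from 77.5% to 66.3% in CD11b+ cells (11.2 points, and 21 points within the gene body) and from 86.4% to 78.9% in CD4+ cells. The gene body value rests only on the exon regions chr2:101698157-101698312 and chr2:101698694-101699007, with losses of 28.3 and 13.1 points.

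Regions in which R878H/+ exceeded WT by more than 10 points numbered 5 of 153 in CD11b+ cells (3.27%), where 0.610% of all listed regions met this criterion, and 0 of 212 in CD4+ cells, where 0.182% did. The 5 were those in exon 14 of Nfkb2, at exon 3 (a pair) of Nfkbiz and in intron 2 of Bcl3, and 1 in intron 3 of Nfkb1, chr3:135666050-135666232, which rose from 72.8% to 82.9%. Apart from the last, each started from a WT mean below 6%, and the 5 held 10 to 18 CpG cytosines. Gains were more frequent at low WT levels in general. Among CD11b+ regions with a WT mean below 20%, they were 4 of 12 in the 10 genes and 1533 of 12784 of all listed regions. The former count includes the neighbouring pair of Nfkbiz. The table of CD4+ cells lists no region overlapping any of the 5.

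The cell types were called separately, so they were compared only where their regions overlap by at least 1 bp, which gave 137 pairs in the 10 genes. The median loss over these pairs was 8.29 points in CD11b+ and 11.6 points in CD4+ cells. The loss was the larger one in CD4+ cells in 82 pairs (59.9%), with a median difference of 2.17 points, beside 52.2% and 0.275 points over 279942 pairs of all listed regions. With a reciprocal overlap of 50%, 63 pairs remained, and CD4+ cells had the larger loss in 40 (63.5%; median difference 1.88 points). Without Nfkb1, this left 34 pairs with a median difference of 0.475 points, and the pairs overlapping by at least 1 bp numbered 68 with 1.33 points. Both losses exceeded 20 points in 16 pairs, of which 9 were in Nfkb1, 3 in Nfkbiz, 2 in Nfkbia and 1 each in Nfkb2 and Bcl3.
By gene, CD4+ cells had the larger loss in 5 of 6 pairs of Tnfaip3 and 42 of 69 pairs of Nfkb1, but in 2 of 7 pairs of Bcl3 and 1 of 5 of Relb. The losses of the pairs had a Pearson's r of 0.654 over the 137 pairs, beside 0.639 over all pairs. Pairs share neighbouring CpGs, and a region may stand in more than 1 pair. Some pairs overlap by only 1 or 2 bp and so compare largely different sequence. Among them are the Tnfaip3 pairs with the largest excess of the CD4+ loss, 17.3 and 14.3 points. WT levels of the paired regions also differed: in Nfkb1, CD4+ cells were more than 20 points higher in 13 pairs and more than 20 points lower in 4. Several of the higher pairs overlap by only 1 or 2 bp, and the lower pair with the largest difference (-58.0 points) by 7 bp. Such pairs set neighbouring sequence side by side rather than the same place.

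**Figure D5:**
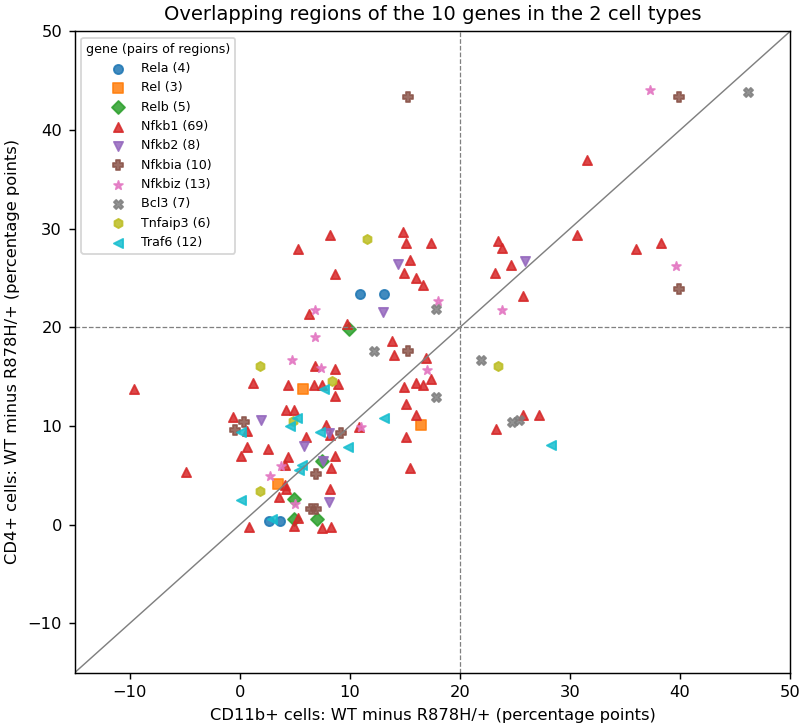
Loss of methylation (WT minus R878H/+, percentage points) in CD11b+ cells (horizontal) and CD4+ cells (vertical) at the 137 overlapping pairs of regions, with a symbol for each gene; the diagonal marks equal loss and the dashed lines 20 points. Bcl3, Nfkbiz, Nfkbia and Nfkb1 reach the upper right, and 82 points lie above the diagonal.

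By position, losses above 20 points, whatever the number of CpG cytosines, were set beside those of all protein-coding genes. In CD4+ cells they made up 7 of 21 promoter regions (within 1 kb of a transcription start; 33.3%, beside 14.0%), 19 of 96 intron regions (19.8%, beside 6.65%), 10 of 44 flanking regions (22.7%, beside 7.53%) and 7 of 51 exon regions (13.7%, beside 5.24%). In CD11b+ cells they made up 2 of 15 promoter regions (13.3%, beside 12.5%), 11 of 73 intron regions (15.1%, beside 7.83%), 6 of 35 flanking regions (17.1%, beside 7.86%) and 4 of 30 exon regions (13.3%, beside 5.58%). Losses were found in every position class, and the share of promoters in CD11b+ cells was the only one near its background. The classes are not fully alike. Regions of the 10 genes were classed by their own gene alone, and the background by any protein-coding gene. Flanking regions inside a neighbouring gene, such as those of Nfkb2 in Psd, would not count as flanks in the background. Annotated repeats made up most of the sequence in 6 of 153 and 10 of 212 regions (3.92% and 4.72%), beside 7.28% and 8.23% of all listed regions.

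The RefSeq promoter table (GRCm38.p6, from 250 bases before to 50 after a start) holds 7 of the 10 genes, with 10 promoters, and Relb, Nfkb1 and Nfkbiz were not matched. Of the 10 promoters, 8 overlap no listed region in either cell type. The exceptions were Bcl3, where the CD11b+ region reaching its promoter fell from 19.4% to 7.17%, and the downstream promoter of Tnfaip3, at the CD11b+ region of exon 2 described above. A kappa-B consensus, GGGRNNYYCC (R is A or G, Y is C or T, N any base), was searched on both strands. It matched the promoter of Rel, that of Bcl3, all 3 of Nfkb2 and 1 of 2 of Tnfaip3. None of Rela, Nfkbia and Traf6 was matched. Of 32851 RefSeq promoters, counted singly, 5.89% were matched. Other forms of the site were not searched, so a promoter without a match may still hold one. It matched 4 of 153 regions in CD11b+ cells (2.61%, beside 3.02% of all listed regions, with up to 300 bases searched in each) and 1 of 212 in CD4+ cells (0.472%, beside 2.97%). It matched none of the 23 and 43 regions with a loss above 20 points, beside 4.05% and 4.55% of all listed regions with such a loss. The matches include the Bcl3 intron 2 region that gained methylation and the Bcl3 region reaching its promoter.

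The wider pathway was described by 45 further genes. At least 1 called region was found in 22 of 43 genes with a region of sufficient size in CD11b+ cells (51.2%) and in 25 of 44 in CD4+ cells (56.8%), beside the 32.8% and 36.4% of protein-coding genes given above. Of their regions, 36 of 291 (12.4%) were called in CD11b+ and 53 of 369 (14.4%) in CD4+ cells. The shares of the 10 genes and of the wider pathway were thus of similar size in CD11b+ cells, and the 10 genes had the higher share in CD4+ cells.
Tradd, the adaptor of the TNF receptor, had the most called regions in CD11b+ cells with 6, and its largest loss went from 78.2% to 22.4% at chr8:105268277-105268699, beside 77.7% to 36.7% in CD4+ cells at chr8:105268351-105269454. Map3k14, the kinase NIK of the non-canonical branch, had 3 (largest 69.3% to 27.6%), and Tnfrsf1a, a TNF receptor, had 3 (79.3% to 42.6%). Tnip1, an A20-binding inhibitor, had 2 (57.2% to 16.9%), as had Zc3h12a, a ribonuclease that limits cytokine mRNA (66.7% to 40.1%), Tlr2 and Il1r1.
In CD4+ cells, Traf3, which restrains NIK, had 5 (largest 76.6% to 48.2%) and Tnfrsf11a, the receptor RANK, had 4 (67.9% to 35.5%). Zc3h12a (61.7% to 26.6%), Traf1 (63.8% to 29.1%), Traf5 (63.4% to 30.8%), Irak3, Irak2, Ikbkg and Tnip3 had 3 each. All 4 TRAF genes of the list had a called region in CD4+ cells, and 2 of the 4 had in CD11b+ cells. The largest losses of the list in CD4+ cells were those of Tradd, of Ltbr, the lymphotoxin receptor (81.0% to 40.8%), and of Tnfrsf1b, the second TNF receptor (61.2% to 25.8%).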

How the data were processed

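DNA of splenic CD11b+ and CD4+ cells was sequenced after bisulfite conversion, which leaves methylated cytosines unchanged and does not tell 5-methylcytosine from 5-hydroxymethylcytosine. BISCUIT was used by the authors to align the reads to mm10, and metilene to find the regions. Versions, metilene settings and a coverage minimum are not given in the sources used here. The size thresholds used here follow the study's criteria for a differentially methylated region, whose q-value was not applied. The deposited tables, 1 per cell type and without a header, hold the authors' mean methylation of each genotype in percent and the number of CpG cytosines per region. They also hold the authors' difference of means, q-values and p-values, which were not used. There were 0 columns of per-sample values, so the depth and precision behind each region are unknown, and how the 6 entries of R878H/+ CD11b+ cells were combined is not stated in the sources used here. No replicate could be left out and no comparison tested.

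Regions were assigned to a gene by an overlap of at least 1 bp with its GENCODE M21 body extended by 5 kb. Starts were converted to count from 1, and the site number was found on the mm10 sequence to count both strands of CpGs. Gene means were weighted by CpG cytosines over regions with more than 10. The rule for naming covered each of the 10 genes, their largest loss, every loss above 20 points and every gain above 10 points, and from the pathway list up to 5 genes with the most called regions (ties are named too, except 1 result not reported here) and 3 with the largest loss. The members, lists and rules were chosen with earlier results of these data known. Scripts were tested on simulated tables and used python 3.11.15, numpy 2.4.6, pandas 2.3.3 and matplotlib 3.10.9. Alternatives changed the size of the loss, the CpG minimum, the window, the overlap, the weighting and the WT level, left out regions inside other genes, and, chosen after seeing the data, left out Nfkb1.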

Additional observations from a re-analysis of the deposited data

How the results depend on the processing

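Of 88 recomputed counts, shares and medians, 74 stayed within a factor of 1.5 of the values reported above, and 14 moved. In CD11b+ cells the 8 called regions became 19 with a loss above 10 points, 4 with a loss above 30 points, 23 with all listed regions counted, 1 with more than 20 CpG cytosines and 5 within gene bodies alone. In CD4+ cells the 24 became 48, 7, 43 and 1 under the same first 4 settings, and 11 without Nfkb1. The share among the 10 genes stayed above that of all listed regions under each of these thresholds, for instance 34.5% beside 27.1% in CD11b+ and 48.5% beside 26.9% in CD4+ cells for a loss above 10 points. With more than 20 CpG cytosines only 3 and 4 regions were left. The share of genes with a called region then went from 55.6% to 100% in CD11b+ cells and from 70.0% to 33.3% in CD4+ cells. The median difference of the losses between the cell types, 2.17 points, was 1.33 points both with flanks of 1 kb and without Nfkb1. Of 170 recomputed gene means, 149 were kept within this factor, 17 moved and 4 reversed. The loss of Nfkb2 in CD11b+ cells, -7.43 points, became 4.79 points with all listed regions and 7.06 points with regions of at least 20% methylation in WT, which leave out its exon 14 stretch. The loss of Tnfaip3 in CD11b+ cells, 1.26 points, became -1.03 points with the gene body alone and with flanks of 1 kb; it rests on 3 regions. No paired analysis was possible because the tables hold group means only, and for the same reason no replicate could be left out. The depth of each region is unknown, so a region missing from a table says nothing of its methylation.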
